A study of Mus musculus with 26 samples.

Results

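Voltage-gated calcium channels are built around a pore-forming subunit encoded by a gene of the Cacna1 family. The pore subunit carries the voltage sensor, the calcium filter and most drug binding sites, and it sets the channel class. Cacna1c and Cacna1d encode L-type pores, which in striatal spiny neurons admit calcium at the soma and dendrites and couple activity to transcription. Cacna1a encodes the P/Q-type pore, Cacna1b the N-type and Cacna1e the R-type, and the P/Q and N types trigger transmitter release. Cacna1g, Cacna1h and Cacna1i encode T-type pores, which open near the resting potential and support burst firing. The members were chosen by gene symbol, with 8 symbols searched in the 3 tables of ribosome footprinting and RNA-Seq values. The GS LRRK2 TG table and the GS/DA LRRK2 TG table list 5 of the 8 among 8576 transcripts each, and the LRRK2 KO table lists 6 of the 8 among 9561. Cacna1a, Cacna1c, Cacna1d, Cacna1h and Cacna1i were listed in every table and Cacna1g in the LRRK2 KO table alone. Cacna1b and Cacna1e appear in none of the tables and were not analysed here. Transcripts with few reads had been discarded by the authors, so the listed members are those whose reads passed that filter.

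The tissue was the caudate putamen (striatum) of C57BL/6 mice aged 3 months by the labels, pooled from several mice of mixed sex for each library. GS LRRK2 TG mice carried a G2019S LRRK2 transgene, and GS/DA LRRK2 TG mice carried G2019S with the kinase-dead change D1994A. Both transgenes were of the "Tet-off" kind, driven by CaMKII-tTA, which is active in forebrain neurons, and doxycycline kept them off until weaning. Non-TG control mice were the comparison for both transgenic groups, and wild-type (WT) mice for LRRK2 knock-out (KO) mice. The labels give 3 footprinting and 3 RNA-Seq samples for non-TG control, 2 and 2 for GS LRRK2 TG and 2 and 2 for GS/DA LRRK2 TG. WT and LRRK2 KO had 3 footprinting and 2 RNA-Seq samples each, and 1 ventral midbrain footprinting sample of each of these genotypes was not analysed here. The footprinting means of WT and LRRK2 KO were each recovered as means of 2 libraries, so not all 3 striatal samples entered them.

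Footprinting counts the mRNA fragments that ribosomes protect, and RNA-Seq counts fragments of total RNA, both in the coding sequence (CDS). The values are the authors' normalized means of a group, given without a spread. The reads of the libraries behind a mean could be recovered for 10 of the 12 columns of means, as 2 libraries each, and are called here the deeper and the shallower library of a group. They held 6736094 to 16017990 reads in the CDS for footprinting of the transgenic tables and 2862941 to 5991871 for footprinting of the LRRK2 KO table. RNA-Seq libraries held 8161273 to 13726823 and 3126208 to 10574894 reads. Neither assay's control libraries were recovered for GS LRRK2 TG, so members of that table have the values of both transgenic libraries beside a control mean only. The labels give 1 set of non-TG control samples for the GS and GS/DA comparisons, and which of them enter each control mean is not given. The control means of the 2 tables differ, with 818 and 999.5 footprints for Cacna1a and 2524 and 1335 for Lrrk2.

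Lrrk2 itself was read first as a check of the labels. In LRRK2 KO the normalized Lrrk2 footprints were 102 and 149.7 in the deeper and the shallower library, and in WT 400.3 and 690.1, so both LRRK2 KO libraries lay below both WT libraries. Lrrk2 footprints in GS/DA LRRK2 TG were 7267 and 4766, above the 1445 and 1224 of its control libraries. In GS LRRK2 TG they were 3320.5 and 7052, above the control mean of 2524. Lrrk2 RNA-Seq was 423 and 270.0 in LRRK2 KO and 1278 and 733 in WT, again without overlap. In the transgenic mice Lrrk2 RNA-Seq did not differ in that way, with 3549.6 and 214 in GS LRRK2 TG beside a control mean of 2105, and 404 and 5038 in GS/DA LRRK2 TG beside 5233 and 560.2 in its control. The log2 changes of those RNA-Seq means were -0.16 and -0.09. Lrrk2 footprints thus changed in the labelled direction in each comparison, and Lrrk2 RNA-Seq in LRRK2 KO alone. For GS LRRK2 TG the check is weaker, since its control libraries were not recovered and an overlap with them could not be seen. Its control mean of 2524 also stood above the 1335 of the separately normalized GS/DA LRRK2 TG table.

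The label striatum was compared with the markers of spiny neurons, of which 12 of 14 symbols were listed in each table, the missing Drd1 and Penk1 being other names of listed genes. Ppp1r1b was the most abundant of them, with control RNA-Seq means of 39026, 39316 and 14353 in the tables of GS LRRK2 TG, of GS/DA LRRK2 TG and of LRRK2 KO. Of the cortical excitatory markers 3, 3 and 6 of 7 were listed, with Slc17a7 the most abundant at 1496, 1144 and 2696. The tissue is a mixture of cells, so fewer cells of a type and less RNA per cell cannot be told apart for any pore subunit.

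The pore subunits were set in order by their control level per kilobase of CDS. This scale allows for coding length but not for the GC content of the CDS, with which the non-TG control RNA-Seq libraries also differed. In RNA-Seq of the non-TG control of the GS/DA LRRK2 TG table, Cacna1i had the highest mean level per kilobase, 335, and Cacna1h followed with 310.2. Cacna1a had a level of 217 and Cacna1c of 202 on this scale, and Cacna1d was last with 67.0. Divided by coding length, the library values of these first 4 members overlapped, while both Cacna1d libraries lay below every library of the others. Within each library Cacna1i stood above Cacna1h and Cacna1h above Cacna1a. Cacna1c was the highest of the 4 in the deeper library and the lowest of them in the shallower. In WT the order was Cacna1a with 154, Cacna1i with 132, Cacna1h with 110.3, Cacna1c with 74.2, Cacna1d with 47.0 and Cacna1g with 28.7, and no neighbours in that order overlapped between libraries. Cacna1d and Cacna1g, the L-type pore with the lower level and the T-type pore best known from the thalamus, were thus the least abundant of the listed members in striatal RNA. Footprints per kilobase in WT placed both at the bottom as well, with 7.94 for Cacna1d and 6.38 for Cacna1g against 28.0 for Cacna1c, 29.4 for Cacna1h, 40.1 for Cacna1i and 44.8 for Cacna1a. In these footprints Cacna1d and Cacna1g overlapped each other and lay below all libraries of the other members, which overlapped among themselves. Footprints of Cacna1g per kilobase lay at percentile 0.309 of all transcripts of that table and those of Cacna1d at 0.501. Cacna1d had the same place in the control of the GS/DA LRRK2 TG table, with 30.1 footprints per kilobase at percentile 0.308, while the other members there lay between percentiles 13.4 and 18.6.

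Translation efficiency (TE) is the log2 ratio of the footprinting mean to the RNA-Seq mean. All listed members had a TE below the median of all transcripts in every control group. In non-TG control of the GS LRRK2 TG table, log2 TE was -0.47 for Cacna1c, -0.90 for Cacna1a, -1.28 for Cacna1d, -1.34 for Cacna1i and -1.45 for Cacna1h, where the median of all transcripts was -0.17. The GS/DA LRRK2 TG table, normalized separately, gave -0.36 for Cacna1c, -0.63 for Cacna1a, -0.93 for Cacna1i, -1.10 for Cacna1h and -1.16 for Cacna1d against a median of 0.04. Cacna1c was thus the pore subunit with the highest TE in both tables. In WT it again had the highest value, -1.40, followed by Cacna1i with -1.72, Cacna1a with -1.78, Cacna1h with -1.91, Cacna1g with -2.17 and Cacna1d with -2.56, and the median of all transcripts was -0.64. The TE of Cacna1d in WT lay at percentile 2.05 of all transcripts and that of Cacna1g at 4.24. The libraries of a group spread widely in this ratio. In non-TG control of the GS/DA LRRK2 TG table, the log2 TE of Cacna1h ran from -1.95 to 0.40 over the combinations of a footprinting and an RNA-Seq library, and that of Cacna1d only from -1.19 to -1.04. Cacna1c there ran from -0.78 to 0.06, apart from Cacna1d but overlapping Cacna1h. In WT the ranges of all 6 members overlapped, and their order in TE within the same pair of libraries was not compared.

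**Figure D1:**
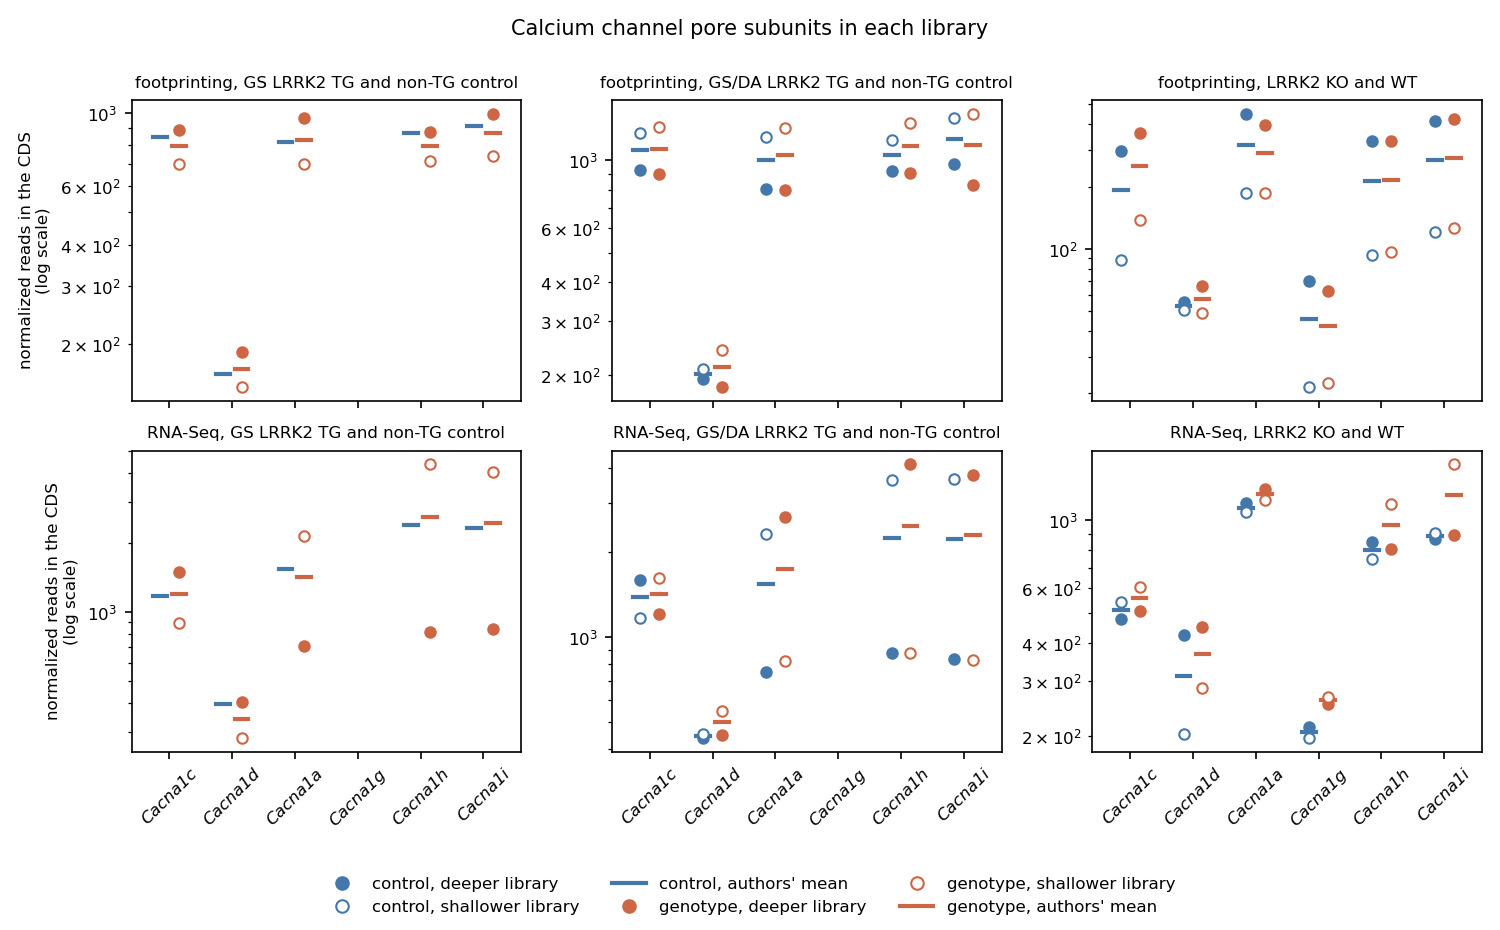
Normalized reads in the CDS (log scale) of each pore subunit, with footprinting in the upper and RNA-Seq in the lower panels and 1 comparison per column, where filled points are the deeper library, open points the shallower library and bars the authors' means. RNA-Seq of Cacna1h and Cacna1i in the transgenic tables lay at 814 to 881 in 1 library of a group and at 3601 to 4374 in the other, while in LRRK2 KO both RNA-Seq libraries of Cacna1a and Cacna1g lay above both WT libraries.

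Cacna1c, the more abundant L-type pore, had footprinting values of 889.6 in the deeper and 699.6 in the shallower GS LRRK2 TG library, beside a control mean of 845. Its RNA-Seq values were 1496 and 898, beside a control mean of 1170. The control mean lay between the libraries in both assays, and the difference of the means has no replicate check in this comparison. On the log2 scale the group means differed by -0.09 in footprinting and 0.03 in RNA-Seq, a TE change of -0.12. In the GS/DA LRRK2 TG table Cacna1c had footprints of 902 and 1280 in the transgenic libraries and 928 and 1226 in the control libraries. Its RNA-Seq values were 1213 and 1626 in the transgenic libraries and 1597 and 1174 in the control libraries. The groups overlapped in both assays, with changes of 0.02 in footprinting, 0.04 in RNA-Seq and -0.02 in TE.

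In LRRK2 KO, Cacna1c had footprints of 365 in the deeper and 137 in the shallower library, and in WT of 297 and 87.9. Each LRRK2 KO library was above the WT library of like depth, but the groups overlapped, because the libraries of a group differed by more than the groups. The reads behind these values were 533 and 98 in LRRK2 KO and 381 and 66 in WT. The log2 change of the footprinting means, 0.38, was at percentile 97.8 of all transcripts, and it turned to -0.24 without the shallower WT library and to -0.49 without the deeper LRRK2 KO library. RNA-Seq of Cacna1c was 506 and 606 in LRRK2 KO and 478 and 540.3 in WT, again overlapping, with a change of 0.13. The TE change of 0.26 was the only one above 0 among the members in this comparison, and it was -0.37 and -0.62 without the same footprinting libraries.

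Cacna1d encodes the L-type pore that opens at lower voltages and is known for pacemaking in dopamine neurons. Its GS LRRK2 TG libraries had footprints of 189 and 148 and RNA-Seq values of 404 and 283, beside control means of 163 and 396. The control means again lay between the libraries, and the changes of the means were 0.05 in footprinting, -0.21 in RNA-Seq and 0.25 in TE. In the GS/DA LRRK2 TG table its footprints were 182 and 241 in the transgenic libraries and 193 and 208 in the control libraries. RNA-Seq of Cacna1d was 451 and 548 against 439 and 455 in the control. The groups overlapped in both assays, with changes of 0.08, 0.16 and -0.08 in footprinting, RNA-Seq and TE. LRRK2 KO libraries had 65.7 and 49.0 footprints of Cacna1d and WT libraries 55.3 and 50.6. Its RNA-Seq values were 449 and 286 in LRRK2 KO and 424 and 203 in WT. Both assays overlapped between the genotypes, and the changes were 0.11, 0.23 and -0.12. Of the members, Cacna1d varied least between the libraries of WT footprinting, by 1.09-fold.

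Cacna1a, the P/Q-type pore of presynaptic terminals, had footprints of 961 and 698 in GS LRRK2 TG, beside a control mean of 818. Its RNA-Seq values were 714 and 2127, beside a control mean of 1530.1. The control mean lay between libraries that differed by 2.98-fold in RNA-Seq, and the changes were 0.02 in footprinting, -0.11 in RNA-Seq and 0.13 in TE. Footprints in the GS/DA LRRK2 TG table were 803 and 1272 in the transgenic and 804 and 1195 in the control libraries. RNA-Seq gave 2665 and 820.5 for Cacna1a in the transgenic and 753 and 2331 in the control libraries. The groups overlapped, and the changes were 0.05 in footprinting, 0.18 in RNA-Seq and -0.12 in TE. In LRRK2 KO, footprints of Cacna1a were 398 and 186, and in WT 450.1 and 187. RNA-Seq of Cacna1a was 1257 and 1157 in LRRK2 KO and 1129 and 1059 in WT. Both LRRK2 KO libraries therefore lay above both WT libraries in RNA-Seq, while the footprints overlapped. The changes were -0.12 in footprinting, 0.14 in RNA-Seq and -0.27 in TE.

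Cacna1h is a T-type pore found in many neurons, and it had the widest gap between RNA-Seq libraries of any member in the GS LRRK2 TG table. Its RNA-Seq values there were 814 in the deeper and 4374 in the shallower library, a 5.37-fold difference, beside a control mean of 2381. Footprints of Cacna1h were 875 and 716, beside a control mean of 869.6. The control means lay within the libraries in both assays, and the changes were -0.13 in footprinting, 0.12 in RNA-Seq and -0.25 in TE. This TE change was at percentile 5.10 of all transcripts, with a z score of -1.40, and it was 1.42 without the shallower and -1.01 without the deeper RNA-Seq library. In the GS/DA LRRK2 TG table its footprints were 909.5 and 1322 in the transgenic and 922 and 1165 in the control libraries. RNA-Seq of Cacna1h was 4101 and 877 in the transgenic and 881 and 3601 in the control libraries. The groups overlapped, with changes of 0.10, 0.15 and -0.05 in footprinting, RNA-Seq and TE. In LRRK2 KO its footprints were 333 and 96.5, and in WT 332 and 93.3. RNA-Seq of Cacna1h was 803 and 1124 in LRRK2 KO and 846 and 747 in WT. The groups overlapped in both assays, because the deeper LRRK2 KO library was below the deeper WT library in RNA-Seq. The changes were 0.02 in footprinting, 0.27 in RNA-Seq and -0.26 in TE.

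Cacna1i, the T-type pore with the slowest kinetics, had GS LRRK2 TG footprints of 993 and 740.5, beside a control mean of 915. Its RNA-Seq values were 838 and 4048, beside a control mean of 2314. The libraries differed by 4.83-fold around that mean, and the changes were -0.08 in footprinting, 0.08 in RNA-Seq and -0.16 in TE. In the GS/DA LRRK2 TG table Cacna1i had footprints of 828 and 1419 in the transgenic and 970.3 and 1378 in the control libraries. RNA-Seq gave 3766 and 831 against 834 and 3637 in the control. The groups overlapped in both assays, with changes of -0.06, 0.04 and -0.10 in footprinting, RNA-Seq and TE. In LRRK2 KO its footprints were 425 and 126, and in WT 416 and 119.9. RNA-Seq of Cacna1i was 890.4 and 1508 in LRRK2 KO and 863 and 907 in WT. The LRRK2 KO library with 1508 stood apart from the other 3, and the remaining LRRK2 KO value lay between both WT values, so the groups overlapped. The RNA-Seq change of 0.44 was at percentile 98.5 of all transcripts, and with a footprinting change of 0.04 it gave a TE change of -0.40. Without the LRRK2 KO library with 1508, the RNA-Seq change was 0.01.

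Cacna1g, the T-type pore that drives bursts of thalamic relay neurons, was listed in the LRRK2 KO table alone. Its RNA-Seq values were 253 and 267 in LRRK2 KO and 214 and 197 in WT, so both LRRK2 KO libraries lay above both WT libraries. Footprints of Cacna1g were 62.3 and 22.4 in LRRK2 KO and 70.1 and 21.3 in WT, which overlapped. These footprints rest on 91 and 16 reads in LRRK2 KO and on 90 and 16 reads in WT. Whether a small difference could be seen at this depth was not tested. The RNA-Seq change of 0.34 was at percentile 95.3 and the footprinting change was -0.11, which together gave a TE change of -0.45.

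Cacna1h, Cacna1i and Cacna1a differed by more than most transcripts from library to library in RNA-Seq of the transgenic mice and their control. Over all transcripts the median fold between the RNA-Seq libraries of a group was 2.22 in GS LRRK2 TG, 1.96 in non-TG control and 2.24 in GS/DA LRRK2 TG. Cacna1h and Cacna1i differed by 4.08-fold and 4.36-fold between the non-TG control RNA-Seq libraries, and Cacna1d by 1.04-fold. Across transcripts, which are not independent replicates, the log2 ratio of the deeper to the shallower of these RNA-Seq libraries had a Spearman rho with CDS GC content of -0.791, -0.780 and 0.802 in the same order of groups. In GC content the CDS of Cacna1h lies at percentile 89.1 of the listed genes, that of Cacna1i (59.5% GC) at 87.1, that of Cacna1a (59.1%) at 85.4 and that of Cacna1g (58.8%) at 83.7. Cacna1c with 53.9% and Cacna1d with 49.8% lay nearer the median of 52.8%, and they were the members whose RNA-Seq libraries differed least in the transgenic tables. In footprinting of WT, Cacna1h differed by 3.56-fold between libraries, Cacna1i by 3.47-fold, Cacna1c by 3.37-fold and Cacna1g by 3.29-fold, where the median transcript differed by 1.30-fold. The part of GC content in the members' values was not tested beyond the alternatives that compare each member with transcripts of like GC content.

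The genotype changes of the whole family were counted in each comparison beside all transcripts of the table. In GS LRRK2 TG, 2 of 5 members were above 0 in footprinting (51.2% of all transcripts), 3 of 5 in RNA-Seq (44.3%) and 2 of 5 in TE (54.8%). The members' medians were -0.08, 0.03 and -0.12, where all transcripts had 0.00, -0.02 and 0.02, so the pore subunits were divided in sign in each measure. The median footprinting change was 0.12 without the shallower transgenic library, the median RNA-Seq change -1.10 without the shallower one, and the median TE change 0.04 and 1.12 without the shallower footprinting and RNA-Seq library, each of the other sign. The z score sets a TE change against the mean and SD of all transcripts, with cutoffs of 1.5 and -1.5. Past the upper cutoff lay 0 of 5 members (8.01% of all transcripts) and past the lower cutoff 0 of 5 (3.91%). Cacna1h was the member nearest to a cutoff.

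In GS/DA LRRK2 TG, 4 of 5 members were above 0 in footprinting (47.5% of all transcripts), where Cacna1a and Cacna1c turned against the transcripts nearest in CDS length. All 5 were above 0 in RNA-Seq, as were 64.7% of all transcripts, and this sign turned for all 5 when each change was set against the median of the 500 transcripts nearest in CDS length. The RNA-Seq changes of Cacna1c and Cacna1i also turned when the median change of all transcripts was taken off, Cacna1c with library totals as the scale and Cacna1i against the transcripts nearest in GC content. In TE 0 of 5 were above 0 (33.5% of all transcripts), and against the transcripts nearest in CDS length 4 of 5 were (49.8% of all transcripts set against theirs in the same way), against those nearest in GC content 2 of 5 (49.3%), against those nearest in control TE 1 of 5 (50.1%), and with library totals 1 of 5 (50.3%). The members' medians of 0.05, 0.15 and -0.08 in footprinting, RNA-Seq and TE stood beside -0.01, 0.06 and -0.05 for all transcripts. Leaving out 1 library turned each median, in footprinting to -0.17 without the deeper control and -0.26 without the shallower transgenic library, and in RNA-Seq to -0.42 and -0.91 without the deeper control and the deeper transgenic library. The TE median turned to 0.17 without the shallower control and 0.19 without the deeper transgenic footprinting library, and to 0.47 and 0.96 without the deeper RNA-Seq library of control and of transgenic mice. No z score passed the cutoffs, with 0 of 5 members up (3.65% of all transcripts) and 0 of 5 down (7.36%). The values of both transgenic comparisons may share non-TG control samples, so they stand side by side here and were not set against each other.

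In LRRK2 KO, all 6 members were above 0 in RNA-Seq, where 51.3% of all transcripts were. Leaving out 1 RNA-Seq library turned the sign of Cacna1d, to -0.21 without the shallower WT and -0.13 without the deeper LRRK2 KO library, and Cacna1c, to -0.01 without the shallower LRRK2 KO library. Without the shallower LRRK2 KO library the change of Cacna1i was 0.01, and Cacna1h was left with 803 beside a WT mean of 796. The sign held for each of the 6 when the change was set against all transcripts, against those nearest in CDS length or GC content, or with library totals as the scale. The members' median RNA-Seq change was 0.25, from 0.08 to 0.45 over the alternatives, and that of all transcripts 0.01. Footprinting changes were above 0 for 4 of 6 members (54.4% of all transcripts) with a median of 0.03 beside 0.02 for all transcripts, and the signs of Cacna1h and Cacna1i turned against the transcripts nearest in CDS length. With library totals as the scale, 3 of 6 footprinting changes were above 0 (50.2% of all transcripts). TE changes were above 0 for 1 of 6 members (53% of all transcripts), and the members' median was -0.26 where all transcripts had 0.02. Leaving out 1 footprinting library turned the footprinting median to -0.61 without the shallower WT and -0.90 without the deeper LRRK2 KO library, and the TE median to 0.70 without the deeper WT and 0.20 without the shallower LRRK2 KO library. Of the 5 members with lower TE, all had higher RNA-Seq values, and Cacna1a and Cacna1g had lower footprints as well. Against the transcripts nearest in control TE the median was -0.10 and Cacna1d turned. Past the upper cutoff lay 0 of 6 members (6.23% of all transcripts) and past the lower cutoff 2 of 6 (6.02%), Cacna1g with a z score of -1.73 and Cacna1i with -1.54, and with cutoffs of 2 there were 0 (2.18%). Leaving out 1 library turned both TE changes, that of Cacna1g to 0.65 without the deeper WT and 0.10 without the shallower LRRK2 KO footprinting library, and that of Cacna1i to 0.76 and 0.23 without the same libraries and to 0.03 without the shallower LRRK2 KO RNA-Seq library. The lower cutoff was a TE change of -0.39 in this table, and Cacna1a with -0.27 and Cacna1h with -0.26 were the next lowest.

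Groups that do not overlap were counted where the libraries of both groups were recovered. In LRRK2 KO RNA-Seq, 2 of 6 members had both libraries above both WT libraries (7.05% of all transcripts), namely Cacna1a and Cacna1g, and 0 of 6 had both below (7.04%). In LRRK2 KO footprinting 0 of 6 members lay above (6.23%) and 0 of 6 below (6.42%). For GS/DA LRRK2 TG footprinting, 0 of 5 lay above (12% of all transcripts) and 0 of 5 below (12.2%). In its RNA-Seq the count was 0 of 5 above (1.8%) and 0 of 5 below (1.55%). A pore subunit with groups that did not overlap was thus found in LRRK2 KO RNA-Seq alone.

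Each member was tested with limma on log2 normalized reads plus 10, fitted over 9520 transcripts for the LRRK2 KO comparison and over 8324 for the GS/DA comparison. The p-values were adjusted over all of them and measure the spread between these libraries of pooled mice. No transcript had an adjusted p under 0.05 (0% in footprinting, RNA-Seq and TE of both comparisons), and so 0 members did. At an unadjusted p under 0.05, limma found 143, 0 and 0 transcripts in footprinting, RNA-Seq and TE of GS/DA LRRK2 TG and 7, 7 and 2 in LRRK2 KO, with 0 members among them. For Cacna1i in LRRK2 KO RNA-Seq, limma gave a change of 0.39 with an SE of 0.338, a 95% interval from -0.45 to 1.22 and an adjusted p of 1.00. For Cacna1g it gave 0.33 with an SE of 0.246, an interval from -0.28 to 0.94 and an adjusted p of 1.00. The intervals of these T-type pores thus held 0. In GS/DA LRRK2 TG RNA-Seq the SE of the members ran from 0.469 for Cacna1d to 1.14 for Cacna1i. Lrrk2 footprints, which differed by 2.14 in GS/DA LRRK2 TG, had an adjusted p of 0.468 in the same limma model. For Lrrk2 in LRRK2 KO, the 95% interval of the change ran from -2.97 to -1.03 in footprinting and from -2.45 to -0.53 in RNA-Seq, each with an adjusted p of 1.00, so limma without a batch block did not call the gene that was knocked out in either assay.

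Control and genotype of a table differed alike between their deeper and shallower libraries. The Spearman rho of this difference between both groups was 0.739 for footprinting and 0.978 in size for RNA-Seq of GS/DA LRRK2 TG, and 0.762 and 0.684 in LRRK2 KO, over transcripts. A library of each group was therefore matched to a library batch, the first being that of the control's deeper library. These batches were read from the values and not from the labels. For RNA-Seq of GS/DA LRRK2 TG, the deeper transgenic library matched the shallower control library. Within the first and the second batch, the RNA-Seq change of Cacna1i in LRRK2 KO was 0.05 and 0.73, and that of Cacna1h was -0.07 and 0.58. Cacna1g changed by 0.23 and 0.42, Cacna1d by 0.08 and 0.48, Cacna1c by 0.08 and 0.16, and Cacna1a by 0.15 and 0.13. The larger value thus came from the second batch for the L-type and the T-type pores alike, while Cacna1a had like values in both. Higher in both batches were 5 of 6 members (24.5% of all transcripts), all but Cacna1h, and lower in both were 0 of 6 (23.6%).

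**Figure D2:**
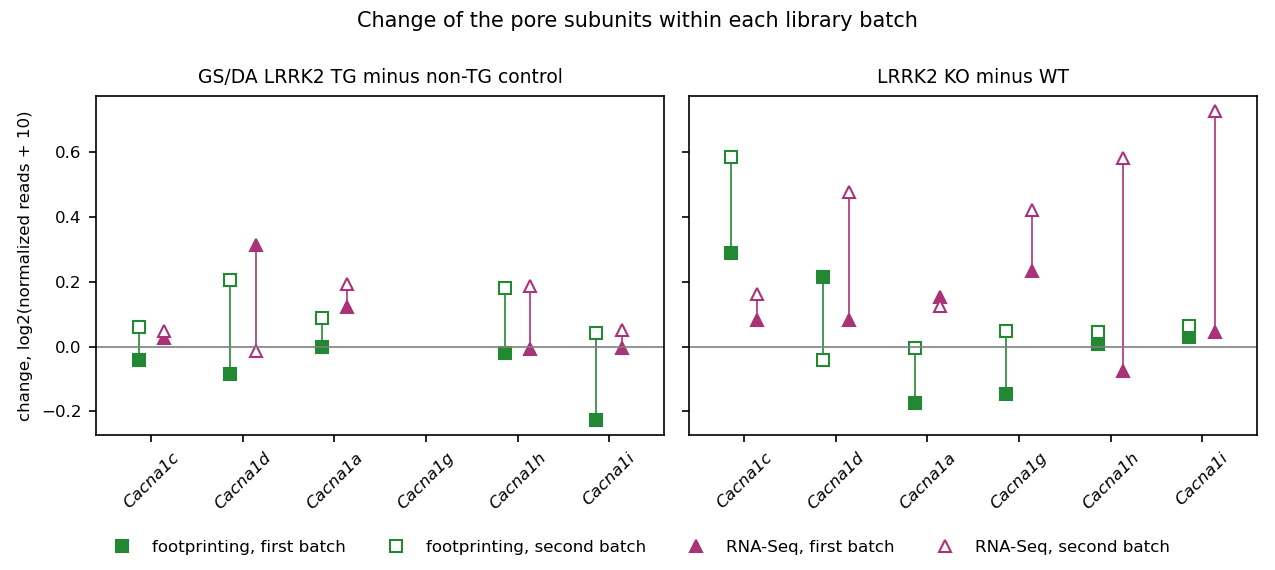
Change of each pore subunit from control to genotype, in log2 of normalized reads plus 10, within the first (filled) and the second (open) library batch, with squares for footprinting and triangles for RNA-Seq. In LRRK2 KO the RNA-Seq change of Cacna1i was 0.05 in the first and 0.73 in the second batch, and the footprinting change of Cacna1c was 0.29 and 0.59.

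Footprints of Cacna1c in LRRK2 KO were higher by 0.29 in the first batch and 0.59 in the second. Higher in both batches of footprinting were 3 of 6 members (24.3% of all transcripts), Cacna1c with Cacna1h and Cacna1i, and lower in both was 1 of 6 (19.4%), Cacna1a. The values of Cacna1h, 0.01 and 0.04, and of Cacna1i, 0.03 and 0.06, were small beside those of Cacna1c. In GS/DA LRRK2 TG footprinting, 0 of 5 members were higher in both batches (28.3% of all transcripts) and 0 of 5 lower in both (32.1%). Its RNA-Seq had 2 of 5 higher in both (21.7%), Cacna1a with 0.12 and 0.19 and Cacna1c with 0.03 and 0.05, and 0 of 5 lower in both (16%). The small batch values of Cacna1c in that comparison contrast with the 0.31 and -0.01 of Cacna1d, whose sign differed between the batches.

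With the batch as a block, limma called 10 transcripts in LRRK2 KO footprinting (0.105%), 12 in RNA-Seq (0.126%) and 0 in TE (0%). In GS/DA LRRK2 TG it called 180 in footprinting (2.16%), 1 in RNA-Seq (0.012%) and 0 in TE (0%), and in every fit 0 members were called. The SE of the members in GS/DA LRRK2 TG RNA-Seq ran from 0.158 for Cacna1i to 0.199 for Cacna1d with this block. Unadjusted p-values under 0.05 in these blocked limma fits came to 251, 410 and 172 transcripts in footprinting, RNA-Seq and TE of LRRK2 KO and to 1279, 114 and 22 in GS/DA LRRK2 TG. Cacna1c was the only member among them, 1 of 6 in LRRK2 KO footprinting, where 2.64% of all transcripts were. Its change of 0.44 had an SE of 0.178 and a 95% interval from 0.09 to 0.79, with an adjusted p of 1.00 from limma, and it was higher in 2 of 2 batches. The result for Cacna1c therefore failed the correction over all transcripts. In the blocked LRRK2 KO fits of footprinting and of RNA-Seq, limma took the SE from the trend over all transcripts, not from a member's own spread. The block was itself read from the same values. The next lowest p-values of the members in LRRK2 KO were those of Cacna1i and Cacna1g in RNA-Seq, both with an adjusted p of 0.995 from limma. Lrrk2 footprints passed under the block, with adjusted p-values from limma of 2.70e-08 in GS/DA LRRK2 TG and 3.11e-28 in LRRK2 KO. Lrrk2 RNA-Seq passed in LRRK2 KO, with an adjusted p from limma of 5.57e-09, and did not in GS/DA LRRK2 TG.

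The labels do not say which footprinting batch belongs with which RNA-Seq batch, so the TE change was taken over the 4 combinations. Which of them join both assays of the same samples was not determined. In LRRK2 KO, Cacna1g ran from -0.57 to -0.19 and Cacna1a from -0.33 to -0.13, below 0 in all 4. Cacna1c ran from 0.13 to 0.50, above 0 in all 4. Cacna1i ran from -0.70 to 0.02, Cacna1h from -0.58 to 0.12 and Cacna1d from -0.52 to 0.13, so these members changed sign with the combination. Cacna1d was -0.26 and -0.12 where the first batch of an assay met the second of the other, and 0.13 and -0.52 otherwise. In GS/DA LRRK2 TG, Cacna1a ran from -0.19 to -0.03 and was the only member of 1 sign in all 4 combinations. Cacna1i there ran from -0.28 to 0.05, Cacna1h from -0.21 to 0.19, Cacna1c from -0.09 to 0.04 and Cacna1d from -0.40 to 0.22.

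The pore subunits share features that the choice by symbol did not use. On the mouse assembly NCBIM37 (mm9), Cacna1c lies on chromosome 6 from 118542314 to 119146249, Cacna1d on chromosome 14 from 30853135 to 31304342 and Cacna1h on chromosome 17 from 25511230 to 25570728, each on the minus strand. Cacna1g lies on chromosome 11 from 94269705 to 94335414 on the minus strand, Cacna1a on chromosome 8 from 86912339 to 87164145 on the plus strand and Cacna1i on chromosome 15 from 80117668 to 80228709 on the plus strand. They are thus spread over 6 chromosomes. Their transcripts in the tables are uc012ghj.1 (Cacna1a), uc012erg.1 (Cacna1c), uc007sus.1 (Cacna1d), uc007kyp.2 (Cacna1g), uc008bav.2 (Cacna1h) and uc009var.1 (Cacna1i). All have a long CDS, from 6670 bases in Cacna1d to 7224 bases in Cacna1h, where the median of the listed genes was 1500.0 bases. Genes annotated on the opposite strand overlap coding bases of Cacna1a (Gm16183), Cacna1c (Dcp1b) and Cacna1d (Dcp1a), and none overlaps those of the T-type pores. The overlap was taken from the whole span of the other gene, introns included, so whether exons of both genes share bases was not tested. Whether the counting used strand is not given.

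The 5′UTR folding energy in the tables is a predicted stability in kcal/mol, lower meaning more stable. It was -302.0 for Cacna1i, -299.74 for Cacna1g, -196.9 for Cacna1h, -164.02 for Cacna1d, -152.2 for Cacna1a and -129.2 for Cacna1c. The median was -91.15 over the transgenic tables and -90.4 over the LRRK2 KO table, so every listed member was below it. The T-type pores had the 3 lowest values of the family. Of the transcripts listed for LRRK2 KO, 9.20% were as low as Cacna1i or lower and 9.38% as low as Cacna1g, and these were the members with the lowest TE change there. The lowest TE change was that of Cacna1h in GS LRRK2 TG and that of Cacna1a in GS/DA LRRK2 TG. With 5 or 6 members, no relation between folding energy and TE change was tested.

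Auxiliary subunits shape the trafficking and gating of the pore, and 10 of 14 of their symbols were listed in each table. Their TE change was above 0 in 5 of 10 for GS LRRK2 TG (54.8% of all transcripts), 3 of 10 for GS/DA LRRK2 TG (33.5%) and 4 of 10 for LRRK2 KO (53%), with medians of 0.01, -0.08 and -0.10. In LRRK2 KO the lowest was Cacng7 with -0.42 and the highest Cacna2d1 with 0.88, whose RNA-Seq means were 565 in WT and 308 in LRRK2 KO beside a footprinting change of 0.00. Cacna2d1, which binds the pore from outside the cell, was the lowest of the list in GS/DA LRRK2 TG with -0.37, and Cacna2d3 the highest with 0.06. In GS LRRK2 TG the lowest was Cacnb1 with -0.19 and the highest Cacng2 with 0.48. Past the z cutoffs lay 1 up (8.01% of all transcripts) and 0 down (3.91%) in GS LRRK2 TG, 0 up (3.65%) and 1 down (7.36%) in GS/DA LRRK2 TG, and 1 up (6.23%) and 1 down (6.02%) in LRRK2 KO. The auxiliary subunits had RNA-Seq changes above 0 in 7 of 10 for LRRK2 KO (51.3% of all transcripts), with a median of 0.08 beside the 0.25 of the pore subunits.

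Partners and regulators of the pore, such as the release machinery, had 15 of 20 symbols listed in each table. Their TE change was above 0 in 7 of 15 for GS LRRK2 TG (54.8% of all transcripts), 7 of 15 for GS/DA LRRK2 TG (33.5%) and 9 of 15 for LRRK2 KO (53%). In LRRK2 KO the lowest was Rimbp2, which links release sites to the pore, with -0.31. In GS LRRK2 TG the lowest was Calm3 with -0.31 and the highest Akap9 with 0.40, and in GS/DA LRRK2 TG the lowest was Akap9 with -0.40 and the highest Rims2 with 0.22. The partners' RNA-Seq changes in LRRK2 KO were above 0 in 6 of 15 (51.3% of all transcripts), with a median of -0.05. Past the z cutoffs lay 1 of these 15 up and 2 down in GS LRRK2 TG, 1 up and 1 down in GS/DA LRRK2 TG, and 2 up and 0 down in LRRK2 KO, where the shares of all transcripts were those given for the auxiliary subunits.

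Likeness to the pore subunits was measured as the root mean square difference of 6 log2 changes, footprinting and RNA-Seq in 3 comparisons, from the medians of the 5 members listed throughout. Among 1675 other transcripts whose 12 group means all reached 500, the nearest were Mll2 with 0.0338, Camta2 with 0.0401 and 2310021P13Rik with 0.0426. No member reached that minimum itself, as Cacna1a had the highest WT footprinting mean of them with 318. The SD of the members' median between libraries was 0.19 in LRRK2 KO RNA-Seq and larger in the other changes, above these distances.

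Cell type markers were summed over a list to show what moved beside the pore subunits, and their part in the members' values was not tested. In LRRK2 KO, the spiny neuron markers summed to 49563 and 68155 in the deeper and the shallower RNA-Seq library and to 47298 and 62174 in WT, a change of the summed means of 0.10, with 0.05 in footprinting. The summed cortical markers changed by -0.10 in footprinting and -0.26 in RNA-Seq there, from 2819 and 5096 in the WT RNA-Seq libraries to 2201 and 4388. The list of thalamic or other Cacna1g-rich neurons had 4 of 5 symbols listed, with Plekhg1 the most abundant and Slc17a6 absent, and RNA-Seq sums of 712 and 389.8 in WT and 703 and 334 in LRRK2 KO. Its change was 0.25 in footprinting and -0.09 in RNA-Seq, where it was 0.41 without the deeper WT and 0.35 without the shallower LRRK2 KO library. Astrocyte markers (6 of 6, most abundant Slc1a2) changed by 0.05 in footprinting and -0.39 in RNA-Seq, with RNA-Seq sums of 4415 and 6809.9 in WT and 4208 and 4367 in LRRK2 KO. Microglia markers (6 of 6, most abundant Csf1r) changed by 0.18 and 0.33, with RNA-Seq sums of 472 and 1099.9 in WT and 494 and 1477 in LRRK2 KO. Interneuron markers (6 of 6, most abundant Sst) changed by -0.03 and -0.07, and choroid plexus markers (3 of 5, most abundant Enpp2) by 0.01 and -0.24. Of the endothelium and smooth muscle markers, Myh11 alone was listed, with changes of 0.32 and -0.72. Leaving out 1 library turned the sign of each of these lists in at least 1 assay, and the changes that kept it throughout were the footprinting change of the Cacna1g-rich neuron markers and the RNA-Seq changes of astrocyte markers, choroid plexus markers and Myh11.

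For GS/DA LRRK2 TG, the cortical markers summed to 4104 and 2574 footprints in the deeper and the shallower library against 1629.5 and 1056 in the control, a change of the summed means of 1.31, with 1.16 in RNA-Seq. The choroid plexus markers, with Ttr the most abundant, changed by -0.93 and -0.60 in footprinting and RNA-Seq, from footprints of 10984 and 5495.1 in the transgenic and 5319.9 and 26078 in the control libraries. Without the shallower control library these changes were 0.63 and 0.65, and the RNA-Seq change was 0.07 without the deeper transgenic library. Spiny neuron markers changed by -0.30 and -0.18, Cacna1g-rich neuron markers (3 of 5, most abundant Prkcd) by 0.02 and 0.25, interneuron markers by -0.01 and 0.02, astrocyte markers by 0.13 and 0.24, and microglia markers (5 of 6) by 0.13 and 0.17. For GS LRRK2 TG, the cortical markers changed by -0.24 in footprinting, which was 0.51 without the deeper and -1.90 without the shallower library, and by -0.79 in RNA-Seq, and the choroid plexus markers by -0.89 and -1.17. Spiny neuron markers changed by -0.12 and -0.10, Cacna1g-rich neuron markers (most abundant Plekhg1) by 0.31 and 0.31, interneuron markers by 0.07 and 0.05, astrocyte markers by 0.08 and -0.02, and microglia markers by 0.08 and 0.13. Leaving out 1 library turned the sign of the spiny neuron, interneuron, astrocyte, microglia and Cacna1g-rich neuron markers in at least 1 assay of each transgenic comparison. No endothelium or smooth muscle marker was listed in the transgenic tables, 0 of 5.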

How the data were processed

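Per the labels, the authors used CASAVA 1.8 and aligned reads to mm9 with TopHat2 2.0.11 and Bowtie2 2.2.2. They counted reads in the CDS, discarded transcripts with few reads, normalized with DESeq 1.20 and deposited a signal per transcript, group and assay, the mean of normalized reads without an SD. The authors also deposited TE, the TE difference and its z score, which were not used, and the lowest 5′UTR folding energy over isoforms. The tables were normalized apart, so each comparison stayed within 1 table.

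Log2 changes were genotype minus control of these means, TE used a pseudocount of 0, and z used the mean and SD of all transcripts. The reads of both libraries behind a mean were recovered because such a mean is a whole number of steps of 2 sizes. Between 97.8% and 99.8% of the transcripts in 10 columns resolved, against 0.0941% to 3.30% after shifting the values by a constant. No library carries a replicate number. The test was limma 3.58.1 with trend (R 4.3.3) on log2(normalized reads + 10), with genotype for each assay, the interaction of genotype and assay for TE, and Benjamini-Hochberg adjustment over all transcripts. The GS comparison has no test, since the libraries of its control could not be recovered. The recovery and the model were tested on simulated data. For footprints, the model without the batch block called most changed transcripts in the GS/DA comparison and none in the KO comparison. With the block it called nearly all in both. These transcripts had been given a larger change than that of any member's group means. Whether the model, with or without the block, would call changes as small as those of the members was not tested. CDS length and GC content came from Gencode annotation on NCBIM37 and were matched for 98.3%, 98.3% and 98.2% of the transcripts in the GS, GS/DA and KO tables. Other tools were Python 3.11.15, pandas 2.3.3, numpy 2.4.6, matplotlib 3.10.9 and ViennaRNA 2.7.2.

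All 8 members are named where listed, Lrrk2 as a check, the highest and lowest TE change of the auxiliary and partner lists, and the 3 transcripts most like the members. The highest partner in LRRK2 KO and 1 list of cell type markers are not reported here. Alternatives were other pseudocounts, minimum means, cutoffs and scales, a library batch block, values within a batch, leaving out a library or a member, and comparison with transcripts nearest in CDS GC content, control TE or, chosen after seeing the data, CDS length. The members and lists were chosen with earlier results of these data known.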

Additional observations from a re-analysis of the deposited data

How the results depend on the processing

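No paired analysis was possible because the columns carry no replicate numbers, although the labels number the samples alike in both assays. The library batches used in its place were read from the values. The deeper footprinting libraries of GS/DA LRRK2 TG and LRRK2 KO held 16017990 and 5991871 reads in the CDS. Each exceeds the mapped reads that the paper lists for the first numbered sample of its group. No recovered RNA-Seq library exceeds those of any sample of its group, so these counts alone do not pair the assays. Shares of mapped reads in the CDS were not used to assign samples. Of 109 alternatives for the members' median changes other than leaving out a library, 96 kept the sign, and of 40 that left out a library 24 did. The median RNA-Seq change of LRRK2 KO stayed above 0 in 18 of 18 alternatives, from 0.08 to 0.45, with 0.45 in the second batch alone. Some of these could not turn it. Every member was above 0 there, so leaving out a member or adding a pseudocount had to keep the sign. The counts of kept signs above also include settings of this kind, so they do not measure how firm a sign is. Against the transcripts nearest in CDS length, a comparison chosen after seeing the data, the median RNA-Seq change of GS/DA LRRK2 TG was -0.03 and the TE change 0.03. The cause was not tested.

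Leaving out 1 RNA-Seq library of GS LRRK2 TG gave a median RNA-Seq change from -1.10 (without the shallower) to 0.48 (without the deeper) and a median TE change from -0.46 to 1.12. For LRRK2 KO, the TE change of Cacna1g ran from -1.37 without the deeper LRRK2 KO footprinting library to 0.65 without the deeper WT one, and was 0.10 without the shallower LRRK2 KO one. That of Cacna1i ran from -1.53 to 0.76 without the same libraries, was 0.23 without the shallower LRRK2 KO footprinting library and 0.03 without the shallower LRRK2 KO RNA-Seq library. It was 0.0196 within the second footprinting and the first RNA-Seq batch. These libraries differed in level by more than the groups did, so a group left with 1 of them takes that library's level.

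Members with TE down in GS LRRK2 TG, 0 as reported, came to 1 of 5 with cutoffs of 1 (12.9% of all transcripts) and to 1 of 4 when each mean had to reach either of 2 higher minimums (3.79% and 3.27%). In LRRK2 KO, 2 as reported, they came to 4 with cutoffs of 1 (14.8%), 0 with cutoffs of 2 (2.18%), and 0 at the stricter of these minimums, where no member was left.

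Transcripts called by limma, 0 as reported, came to 180 in GS/DA LRRK2 TG footprinting with the batch block, 487 with the block and library totals, and 2 to 36 when a library was left out, its group's other library being assumed to vary like the rest. RNA-Seq gave 1 and 6 with the block and with the block and library totals, and TE gave 1 with the latter. In LRRK2 KO the same alternatives gave 10 and 9 in footprinting and 12 and 7 in RNA-Seq. No member was called by limma under any of them. Members with an unadjusted p under 0.05 from limma came to 1 in LRRK2 KO footprinting with the block (2.64% of all transcripts). With the block and library totals there was also 1 (2.75%), Cacna1c in both fits. Without the second-batch transgenic library, the limma change of Cacna1i in GS/DA LRRK2 TG footprinting was -0.48. The fewest footprint reads of a member in a library were the 16 of Cacna1g.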

Other observations

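Cacna1b, the N-type pore, is annotated on chromosome 2 from 24459407 to 24618672 and Cacna1e, the R-type pore, on chromosome 1 from 156239649 to 156573049, both on the minus strand of NCBIM37. Their CDS of 7151 and 6819 bases and GC content of 55.5% and 52.9% lie within the range of the listed members.

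The annotated 5′UTRs of the members were folded with RNAfold of ViennaRNA to see how far the isoforms of a pore subunit differ. For Cacna1h the annotated 5′UTRs ran from 110.0 to 650.0 bases and the folding energy from -56.3 to -353.6 kcal/mol. Cacna1a ran from -13.6 to -151.4 kcal/mol over 5′UTRs of 54 to 281 bases, and Cacna1d from -9.7 to -197.8 over 55 to 495 bases. Cacna1i had 5′UTRs of 265 and 561 bases with -125.0 and -295.3 kcal/mol, and Cacna1g had 420.0 to 483 bases with -227.6 to -259.3. Cacna1c had 1 annotated 5′UTR of 394 bases with -121.2 kcal/mol, and Cacna1b had 82 and 105 bases with -45.6 and -54.4. The isoforms of Cacna1h spanned the widest range, and the tables give a single energy per gene.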
